A study of Mus musculus with 7 samples.

Results

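Transcription factors that set the identity of the somatic cells of the ovary were followed through the RNA-seq libraries of control (CNTR) and PAMH F3 mouse ovaries. The 10 genes, Foxl2, Nr5a1, Nr5a2, Nr0b1, Gata4, Gata6, Wt1, Runx1, Runx2 and Nr2f2, were chosen by name for their known roles and not by their values. Earlier results of these data were known when the genes were chosen. They were found by the Ensembl identifier that GENCODE M21 pairs with each symbol, among 55487 identifiers in all. All 10 had a symbol that matched 1 identifier, and all 10 were among the 18779 genes that passed the filter on low counts and were tested.

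Each library came from the ovaries of 1 adult C57BL/6J female, collected at diestrus on postnatal day 60. The 3 CNTR mice were offspring (F1) of dams that received PBS, and the 4 PAMH F3 mice were the third generation after F0 dams given daily injections of anti-Müllerian hormone (AMH, 0.12 mg per kg of body weight) in late pregnancy, with no AMH given to the later dams. The labels give the injections as subcutaneous and the methods of the study as intraperitoneal. The PAMH line served as a mouse model with traits of polycystic ovary syndrome (PCOS), and the question put to these libraries was whether the ovarian transcriptome still differs from control when no cell of the animal had met the hormone. Because the controls were of generation F1, a difference between the groups cannot be told apart from a difference between generations.

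In an ovarian follicle the oocyte is enclosed by granulosa cells, and theca cells form the outer layer that makes androgens. After ovulation the follicle wall turns into a corpus luteum, which makes progesterone. FOXL2, a forkhead factor, keeps granulosa cells in their female state and holds back genes of the Sertoli cell, their counterpart in the testis. NR5A1 (steroidogenic factor) and NR5A2 (liver receptor homolog) are nuclear receptors that bind similar DNA sites in steroidogenic genes, and NR0B1 (DAX1) binds and restrains them. GATA4 and GATA6 are zinc finger factors that act with NR5A1 on such genes. WT1 is present in immature granulosa cells, stroma and the surface epithelium, RUNX1 in pre-granulosa cells and, with RUNX2, in granulosa cells that respond to the ovulatory surge of luteinizing hormone, and NR2F2 (COUP-TFII) in stroma and theca.

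The libraries held 32158174 to 35485021 reads assigned to genes, and 1 library was made per mouse, so that the spread given below is between mice. Levels are given as CPM, counts scaled to a common library size by TMM over all gene rows, and differences as log2 fold changes of PAMH F3 over CNTR with their standard error (SE). The comparison used edgeR's quasi-likelihood F test across all genes with 2 surrogate variables, which are covariates that sva derives from the count table to absorb unwanted variation. For some genes the value of that fit without them is given too, and genes without it can differ between the fits. The ovarian label held in all 7 libraries, since summed oocyte marker genes, among them Gdf9 and Zp3, were between 409.2 and 656.1 CPM and summed granulosa genes between 6902.2 and 11863.7 CPM. Genes of neighboring tissue were also read, with oviduct epithelium genes between 2844.6 and 6666.3 CPM in sum, of which the oviduct glycoprotein gene Ovgp1 made 90.0%, and adipocyte genes between 299.8 and 1653.3 CPM. In whole ovaries, fewer cells of a type and less RNA per cell cannot be told apart. CNTR replicate 2 stood apart in base composition, where log2 expression had a slope of 0.298 for each 10% of gene GC content, against slopes of -0.119 to 0.045 in the other libraries.

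No factor passed the test of the difference between PAMH F3 and control ovaries. With p adjusted over all genes and a threshold of 0.05, edgeR called 0 of the 10, as it called 0 of the 18779 genes tested (0%). An unadjusted p under 0.05 was found for 1 of the 10, Foxl2, which was lower in PAMH F3, and for 1435 of the genes tested (7.64%, with 3.89% lower and 3.75% higher), so the share among the factors was near that of all genes. Without surrogate variables it was again Foxl2 alone, against 3.95% of the genes tested in either direction and 2.84% lower. DESeq2, given these surrogate variables, called 0 of the 10 and 101 genes in all. The groups overlapped in CPM for all 10, and 799 of the genes tested (4.25%, with 2.4% lower and 1.85% higher in PAMH F3) had groups that did not overlap. The log2 fold changes of the 10 factors ran from -0.67 to 0.17 with a median of 0.01, and the median over all genes tested was 0. Without surrogate variables the median of the 10 was -0.04. The plot of levels by library shows how closely the groups lay for most of the factors.

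**Figure D1:**
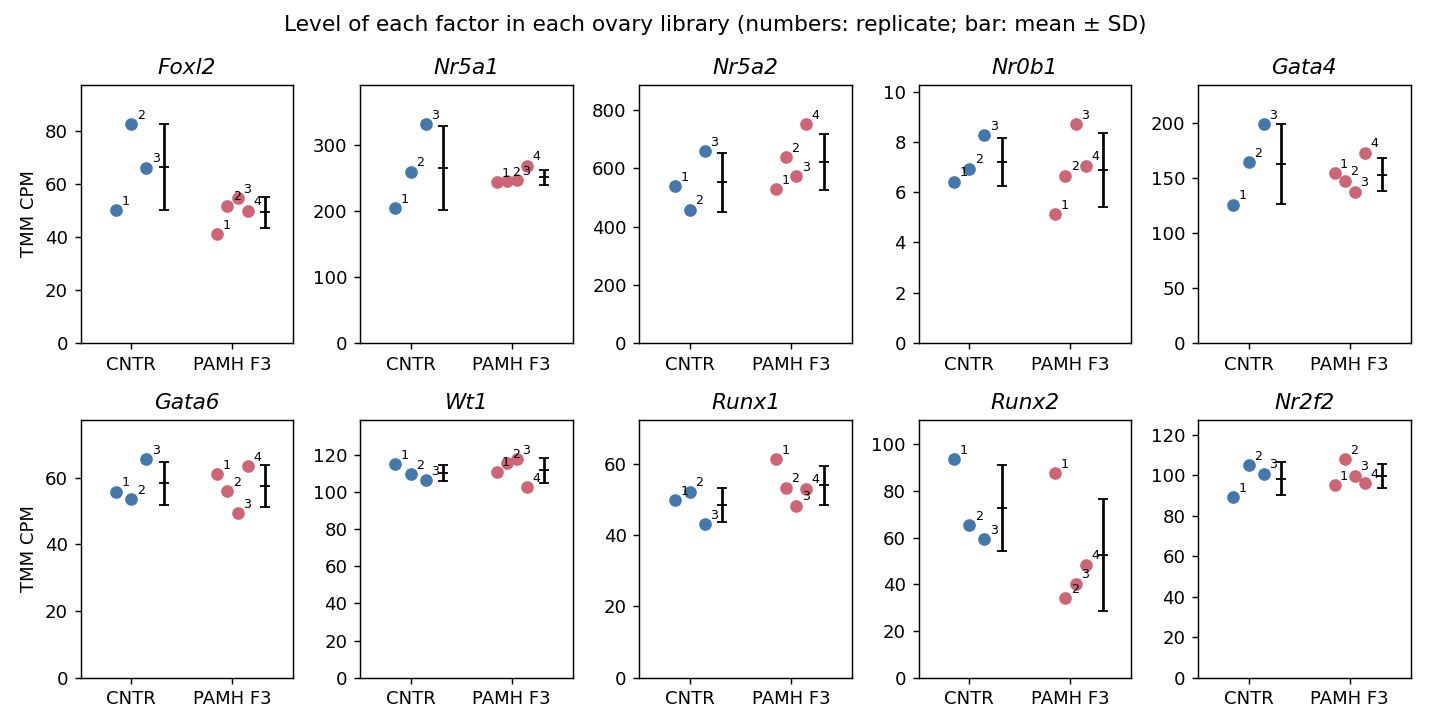
Each panel plots the TMM CPM of 1 factor (vertical axis from 0) in the 3 CNTR and the 4 PAMH F3 libraries, with the replicate number beside each point and the mean ± SD as a black bar. The groups overlap in every panel, Wt1 hardly varies (102.7 to 117.9 CPM), and Runx2 is high in replicate 1 of both groups.

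Compared per kilobase of exon, so that genes of different length can be set in order, the nuclear receptor Nr5a2 was at the top with a mean of 100.4 CPM per kb and a range of 77.7 to 127.4 over the 7 libraries. Nr5a1 followed at 60.7 ± 9.08 CPM per kb (SD, n = 7) and Gata4 at 40.3 ± 6.20 CPM per kb (SD, n = 7). The library ranges of Nr5a2 and Nr5a1 overlapped by a small margin, as did those of Nr5a1 and Gata4, while Gata4 lay above all lower factors in every library. Wt1, at 18.0 ± 0.869 CPM per kb, and Foxl2, at 17.4 ± 4.18 CPM per kb (SD, n = 7), could not be put in order. Below them stood Nr2f2 at 11.5 CPM per kb, Gata6 at 8.89 CPM per kb, Runx2 at 6.92 CPM per kb, Runx1 at 4.29 CPM per kb and Nr0b1 at 3.88 CPM per kb. The ranges of Gata6 and Runx2, of Runx2 and Runx1, and of Runx1 and Nr0b1 overlapped, and the wide range of Runx2 (3.84 to 10.6 CPM per kb) also reached those of Nr2f2 and Nr0b1. The median over the genes tested was 4.67 CPM per kb, and 8 of the 10 factors were above it. The order depends on the length used, and with the median transcript length in place of all exons 3 of the 10 kept their place (Nr5a2, Nr2f2 and Nr0b1), while Gata6 moved from place 7 to place 4 and Foxl2 from place 5 to place 9.

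**Figure D2:**
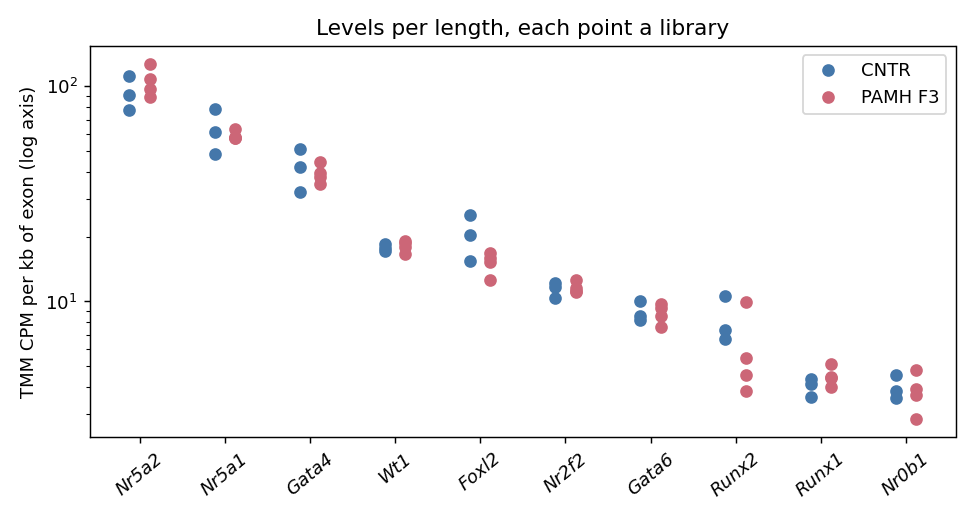
TMM CPM per kilobase of exon (vertical log axis) of each factor in the 3 CNTR (blue) and 4 PAMH F3 (red) libraries, ordered by the mean over all libraries. Nr5a2 leads at 100.4 and Nr0b1 is last at 3.88 CPM per kb, and the groups are mixed at every factor.

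The sequences upstream of the most and the least abundant of these genes per length are shown, Nr5a2 and the gene of its inhibitor Nr0b1. They are the RefSeq promoter windows on GRCm38.p6, cut to the bases that lie upstream of the gene start in both RefSeq and GENCODE, and are written 5′ to 3′ on the strand of the gene. Nr5a2 lies on the minus strand at chr1:136960449-136960698 and Nr0b1 on the plus strand at chrX:86191525-86191763. Capitals mark matches, on either strand, to 5 letter patterns that were searched, for NR5A, forkhead, GATA and RUNX factors and for the TATA box. No pattern was searched for WT1, NR2F2 or NR0B1. The pattern for NR5A receptors was AAGGTCA. The forkhead pattern was GTAAACA. For GATA factors the letters AGATAA were used. RUNX factors had TGTGGT as their pattern. The TATA box was searched as TATAAA. No match overlaps another.
Nr5a2: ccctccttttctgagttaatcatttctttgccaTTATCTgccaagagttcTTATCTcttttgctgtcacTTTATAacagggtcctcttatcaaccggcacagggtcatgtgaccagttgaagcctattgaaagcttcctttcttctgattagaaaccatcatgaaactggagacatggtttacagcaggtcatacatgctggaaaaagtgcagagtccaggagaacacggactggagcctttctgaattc
Nr0b1: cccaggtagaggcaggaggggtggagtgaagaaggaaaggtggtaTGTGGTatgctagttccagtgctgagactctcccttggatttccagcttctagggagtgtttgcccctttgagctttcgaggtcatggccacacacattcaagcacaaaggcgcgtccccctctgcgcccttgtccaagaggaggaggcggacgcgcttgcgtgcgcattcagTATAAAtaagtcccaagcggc
The Nr5a2 stretch holds 2 GATA matches, at positions -217 and -200 from the RefSeq start, and a TATA match at -181, all on the opposite strand. The GATA pattern is present in 11.2% of the 32851 windows of the same table, which are 300 bases long each. In the Nr0b1 stretch, a RUNX match (16.8% of all windows) lies at -205 and a TATA match (13.6%) at -32. Neither stretch holds the NR5A pattern (4.72% of all windows) or the forkhead pattern (3.65%), which says only that these letters are not in these bases. Windows were found for 6 of the 10 genes (Foxl2, Nr5a2, Nr0b1, Runx1, Runx2 and Nr2f2).

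Foxl2 (ENSMUSG00000050397, mm10 chromosome 9 from 98955288 to 98958543) consists of 1 exon of 3256 bases in the annotation. It was at 50, 82.4 and 66.0 CPM in CNTR replicates 1, 2 and 3 and at 41.0, 51.7, 54.6 and 49.9 CPM in PAMH F3 replicates 1 to 4. The 2 highest libraries were both CNTR, and CNTR replicate 1 lay inside the PAMH F3 range. The means of the groups were 66.1 ± 16.2 (CNTR, SD, n = 3) and 49.3 ± 5.88 CPM (PAMH F3, SD, n = 4; exact permutation test, two-sided p = 0.0857, where the smallest p this design allows is 0.0286). In edgeR the log2 fold change was -0.25 (SE 0.07), with an edgeR p of 0.0108 before adjustment and 0.54 after it. By unadjusted p, 374 genes came before it.

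The size of the Foxl2 difference depended on the libraries and the fit. Without surrogate variables it was -0.42 (edgeR unadjusted p = 0.0286). Leaving out CNTR replicate 1 moved it to -0.58 (edgeR adjusted p = 0.08), and leaving out CNTR replicate 2 to -0.18 (edgeR unadjusted p = 0.0751). The longest Foxl2 transcript has a GC content of 60.8%, the highest of the 10 factors, and its highest library is CNTR replicate 2, the library whose expression increased most with GC. After a correction of each library for GC content and length, without surrogate variables, the log2 fold change was -0.17 (edgeR unadjusted p = 0.124). Whether base composition is a cause of the Foxl2 difference was not tested. The log2 fold change of Foxl2 was below 0 in all 20 alternatives tried, between -0.58 and -0.17. Of these 20, 17 gave an unadjusted p under 0.05, and the lowest adjusted p was 0.08 (edgeR, without CNTR replicate 1).

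An antisense gene, Foxl2os, starts within the first bases of Foxl2 on the opposite strand. It was at 79.9, 116.0 and 139.6 CPM in the CNTR libraries and from 89.2 to 123.7 CPM in PAMH F3, and the log2 fold change was 0.03 (SE 0.06, adjusted p = 0.931 in edgeR). Other genes on the opposite strand that overlap a factor and are read at this depth are 1010001N08Rik at Gata6 (451 to 732 counts), Supt3 at Runx2 (649 to 860 counts) and B130024G19Rik at Nr2f2 (290 to 429 counts). The kit keeps the strand of the RNA, but whether the counting used it is not given in the sources used here. Antisense genes inside the transcribed regions of Runx1 and Runx2 (Gm26626, Runx2os1, Runx2os2 and Runx2os3) had between 0 and 8 counts in every library, although Runx1 and Runx2 themselves had at least 1126.

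Nr5a1 (ENSMUSG00000026751, chromosome 2 from 38692656 to 38714542) was at 204.5, 259.8 and 331.7 CPM in the CNTR libraries and at 244.1, 245.2, 246.9 and 268.9 CPM in the PAMH F3 libraries. All PAMH F3 libraries lay inside the CNTR range, which was wide, with a CV of 24.0% in CNTR and 4.70% in PAMH F3. The log2 fold change was 0.04 (SE 0.06, adjusted p = 0.928 in edgeR), and -0.08 without surrogate variables. It was -0.22 without CNTR replicate 1, the lowest library (edgeR unadjusted p = 0.0154). Its paralog Nr5a2 (ENSMUSG00000026398, chromosome 1 from 136842571 to 136960448), which is a granulosa and luteal gene in the ovary, was at 539.6, 458.4 and 658.9 CPM in CNTR and at 527.6, 638.4, 573.2 and 751.6 CPM in PAMH F3. Its lowest library was CNTR replicate 2 and its highest PAMH F3 replicate 4. With a log2 fold change of 0.17 (SE 0.11, adjusted p = 0.781 in edgeR), the group difference was smaller than the spread between mice. Leaving out CNTR replicate 2 made it 0.10, and leaving out PAMH F3 replicate 1 made it 0.23 (edgeR unadjusted p = 0.00691, adjusted p = 0.264). Nr0b1 (ENSMUSG00000025056, chromosome X from 86191764 to 86195947), the corepressor of both, was at 6.42, 6.93 and 8.26 CPM in CNTR and at 5.13, 6.66, 8.70 and 7.05 CPM in PAMH F3, and PAMH F3 held both the lowest and the highest library. Its counts, from 181 to 312 per library, were the lowest of the 10, and its log2 fold change was 0.01 (SE 0.20, adjusted p = 0.997 in edgeR).

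Gata4 (ENSMUSG00000021944, chromosome 14 from 63198922 to 63271692) was at 125.7, 164.3 and 199.0 CPM in CNTR and at 154.7, 147.6, 137.7 and 173.0 CPM in PAMH F3. As with Nr5a1, CNTR replicate 1 was the lowest and CNTR replicate 3 the highest of the 7 libraries. The log2 fold change was 0.01 (SE 0.05, adjusted p = 0.978 in edgeR), and -0.25 without CNTR replicate 1 (edgeR unadjusted p = 0.00404). Gata6 (ENSMUSG00000005836, chromosome 18 from 11052064 to 11085635) was at 55.8, 53.6 and 65.6 CPM in CNTR and at 61.0, 55.9, 49.4 and 63.5 CPM in PAMH F3, and the log2 fold change was -0.04 (SE 0.06, adjusted p = 0.918 in edgeR). For neither GATA gene did the group means differ by more than the SD between mice.

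Wt1 (ENSMUSG00000016458, chromosome 2 from 105126529 to 105173616) had the narrowest range of the 10 over all 7 libraries. It was at 115.1, 109.6 and 106.6 CPM in CNTR and at 111.0, 115.6, 117.9 and 102.7 CPM in PAMH F3, and its highest library was 1.15 times its lowest. The CV of Wt1 was 3.86% in CNTR and 5.98% in PAMH F3, where the median over all genes tested was 14.6% and 11.5%, and 11% and 8.22% over the 12024 genes at or above the level of the lowest factor. Within PAMH F3, Nr5a1 and Nr2f2 had lower CVs (4.70% and 5.88%). Its log2 fold change was 0.01 (SE 0.06, adjusted p = 0.99 in edgeR). Nr2f2 (ENSMUSG00000030551, chromosome 7 from 70351944 to 70366735), the stromal and theca factor, was nearly as even, at 89.2, 104.9 and 100.7 CPM in CNTR and at 95.1, 108.0, 99.8 and 96.2 CPM in PAMH F3. The fitted log2 fold change was 0.08 (SE 0.06, adjusted p = 0.809 in edgeR), and -0.04 without CNTR replicate 1.

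Runx2 had the widest spread of the 10. Runx2 (ENSMUSG00000039153, chromosome 17 from 44495987 to 44814797) was at 93.6, 65.2 and 59.2 CPM in CNTR and at 87.6, 33.9, 40.2 and 48.4 CPM in PAMH F3. PAMH F3 replicate 1 lay within the CNTR range, the other 3 PAMH F3 libraries lay below every CNTR library, and the highest library was 2.76 times the lowest. The means were 72.7 ± 18.4 CPM (SD, n = 3) and 52.5 ± 24.1 CPM (SD, n = 4; exact permutation test, two-sided p = 0.314). In edgeR the log2 fold change was -0.67 (SE 0.29), with an edgeR p of 0.0529 before and 0.654 after adjustment. It was -0.94 without PAMH F3 replicate 1 (edgeR adjusted p = 0.0864) and -0.28 without CNTR replicate 1 (edgeR adjusted p = 0.741), so that each of these libraries moved the value more than any other. Without surrogate variables it was -0.47 (edgeR unadjusted p = 0.157). Of the 20 alternatives, 6 gave an unadjusted p under 0.05, and over all 20 it ran from 0.000433 (without PAMH F3 replicate 1) to 0.463 (without CNTR replicate 1), with adjusted p values from 0.0864 to 1.0.

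Runx1 (ENSMUSG00000022952, chromosome 16 from 92601466 to 92826149) was at 49.9, 52.2 and 43.1 CPM in CNTR and at 61.4, 53.3, 48.3 and 53.1 CPM in PAMH F3. Of the PAMH F3 libraries, 3 were above every CNTR library and replicate 3 was not. Its log2 fold change of 0.14 (SE 0.11) had an edgeR adjusted p of 0.805, and when a library was left out it ran from 0.05 (without CNTR replicate 3) to 0.23 (without PAMH F3 replicate 3, edgeR unadjusted p = 0.0397). Runx1 and Runx2 therefore had means that differed in opposite directions, neither beyond the test's threshold.

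**Figure D3:**
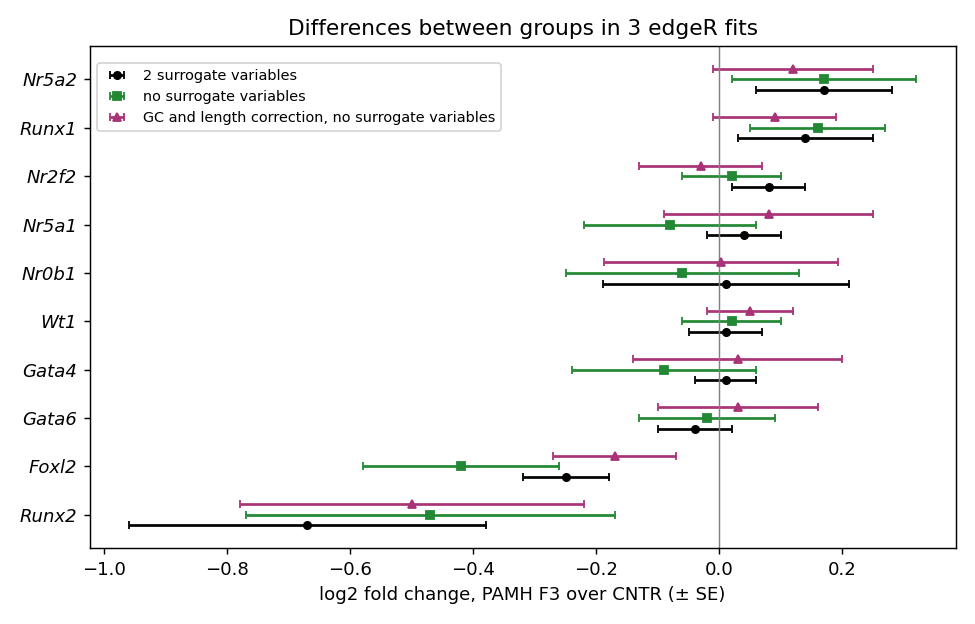
Log2 fold changes of PAMH F3 over CNTR (horizontal axis, bars ± standard error) for the 10 factors in edgeR fits with 2 surrogate variables (circles), without them (squares) and with a correction for GC content and length (triangles). Foxl2 and Runx2 stay below 0 in the 3 fits, with Foxl2 at -0.25, -0.42 and -0.17, and the other 8 factors lie within 0.17 of 0.

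How the factors varied together among the 7 mice was described by correlations of log2 CPM over the 45 pairs. An unadjusted p under 0.05 was found for 4 pairs and an adjusted one for 0 pairs. The closest pair was Nr5a1 and Gata4 (Pearson's r = 0.95, exact permutation p = 0.00119, adjusted over the pairs 0.0536, Spearman's rho = 0.86, exact permutation p = 0.0238). Without CNTR replicates 1 and 3, the libraries farthest from the median of Nr5a1, r was 0.84. Taking each library as its deviation from its group mean left r at 0.95. Gata4 and Wt1 ran in opposite directions (r = -0.81, exact permutation p = 0.028, adjusted 0.346, rho = -0.86, exact permutation p = 0.0238, and r = -0.96 without CNTR replicates 1 and 3).

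Each factor was also set against the summed CPM of 11 lists of genes that mark cell types or act with the factors, 110 relations chosen after the values had been seen. Libraries share 1 scaling, and a larger share of a tissue in a library lowers the share of all others. For 3 of the 110, the p of Pearson's r passed the threshold after adjustment, and for 0 of them that of Spearman's rho did. Nr5a2 followed the granulosa genes (r = 0.97, exact permutation p = 0.000595, adjusted 0.0327, rho = 0.96, exact permutation p = 0.00278, adjusted 0.102). Without CNTR replicate 2 and PAMH F3 replicate 4, the lowest and the highest library, r was 0.91, and without Gja1, the gap junction gene that makes 31.6% of that sum, it was 0.95. In deviations from the group means r was 0.97. Taken singly, 13 of the 18 granulosa genes had a positive r with Nr5a2.

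Wt1, within its narrow range, followed 2 epithelial lists past the threshold, and less closely the adipocyte genes (r = 0.90, exact permutation p = 0.00833, adjusted 0.183, rho = 0.79, exact permutation p = 0.048, adjusted 0.352), where r was 0.79 without PAMH F3 replicates 3 and 4. Against the surface epithelium genes r was 0.96 (exact permutation p = 0.00119, adjusted 0.0437, rho = 0.89, exact permutation p = 0.0123, adjusted 0.193), with r = 0.93 without PAMH F3 replicates 3 and 4 and r = 0.88 without the keratin gene Krt18. Against the oviduct epithelium genes r was 0.97 (exact permutation p = 0.000595, adjusted 0.0327, rho = 0.96, exact permutation p = 0.00278, adjusted 0.102). It was 0.92 without PAMH F3 replicates 3 and 4. That relation rested on Ovgp1, since r was 0.47 over the sum without it. Gata4 ran against both epithelial sums, past neither adjusted threshold. Its r was -0.86 with the oviduct sum (exact permutation p = 0.0147, adjusted 0.202) and -0.83 with the surface sum (exact permutation p = 0.0224, adjusted 0.253). The part of these tissues in the opposite run of Gata4 and Wt1 was not tested. Several keratins of the surface epithelium list are also made by oviduct epithelium, and the surface relation was not tested without all of them. In PAMH F3 replicate 3, the highest Wt1 library, Krt18 had its highest level, 269.7 CPM. There Upk3b (103.6 CPM) and Msln (78.4 CPM), also of the surface list, were below their CNTR means of 131.2 and 89.4 CPM. Taken singly, 8 of the 10 surface epithelium genes had a positive r with Wt1.

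Runx2 had the same pair of highest libraries as the endothelial genes, which were at 438.2 CPM in CNTR replicate 1 and 452.8 CPM in PAMH F3 replicate 1 and between 330.8 and 416.7 CPM in the others. The relation had r = 0.94 (exact permutation p = 0.00456, adjusted 0.125, rho = 0.89, exact permutation p = 0.0123, adjusted 0.193), and r = 0.95 without CNTR replicate 1 and PAMH F3 replicate 2. It was 0.91 in deviations from the group means, and Runx2 had a positive r with 9 of the 10 genes taken singly. All 10 endothelial genes had log2 fold changes below 0, between -0.44 and -0.03, as had 9078 of the 18779 genes tested. The median of the 10 was -0.19, and -0.15 without surrogate variables. Their summed level was 398.0 to 438.2 CPM in CNTR and 330.8 to 452.8 CPM in PAMH F3, with 0 of the 10 at 0 in every library. Runx2 also ran with the leukocyte genes (r = 0.78, exact permutation p = 0.0321, adjusted 0.272, rho = 0.79, exact permutation p = 0.048, adjusted 0.352), and without CNTR replicate 1 and PAMH F3 replicate 2 that r was 0.96. The lysozyme gene Lyz2 made 68.4% of the leukocyte sum, and the relation was not tested without it. The part of endothelial cells or leukocytes in the Runx2 difference was not tested.

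**Figure D4:**
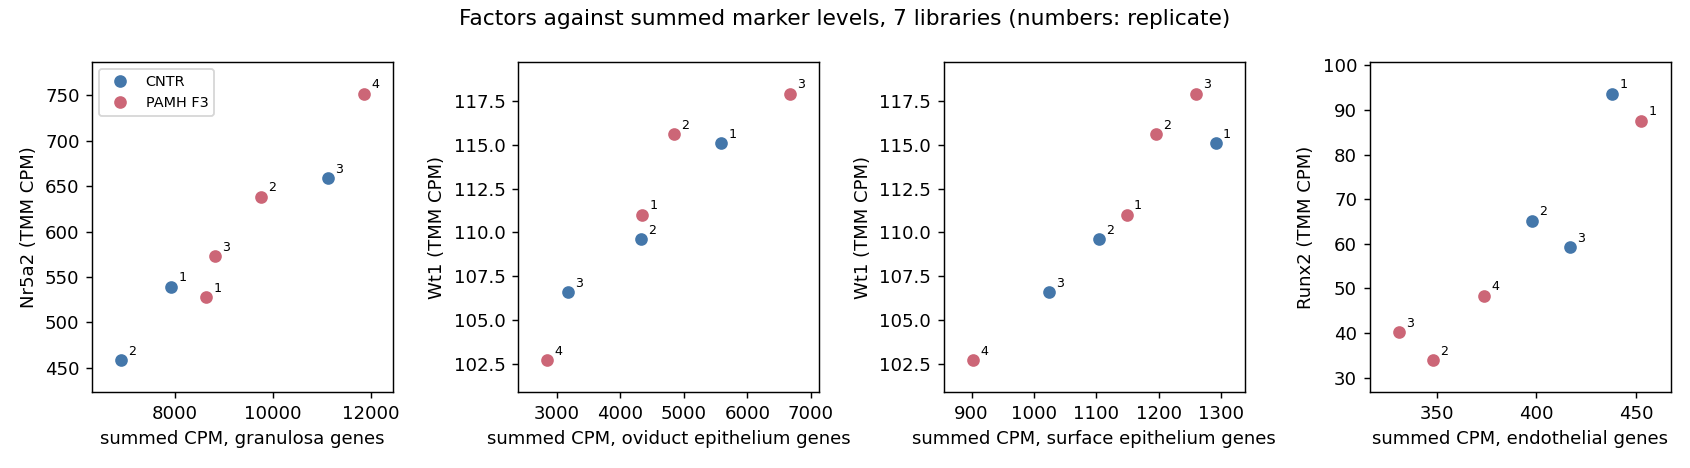
TMM CPM of a factor (vertical axes, not from 0) against the summed CPM of a list of marker genes (horizontal axes) in the 3 CNTR (blue) and 4 PAMH F3 (red) libraries, with replicate numbers. From left to right r is 0.97 for Nr5a2 and granulosa genes, 0.97 and 0.96 for Wt1 with oviduct and surface epithelium genes, and 0.94 for Runx2 and endothelial genes.

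Around these factors, 22 partners and related regulators were listed, and 21 could be tested. The adjusted threshold was passed by 0 of them, and an unadjusted p under 0.05 was found for 3 higher and 2 lower in PAMH F3, against 3.75% and 3.89% of all genes tested. Runx3, the third RUNX gene, was at 1.57, 1.77 and 4.12 CPM in CNTR and at 1.25, 0.753, 1.23 and 0.658 CPM in PAMH F3, so that every PAMH F3 library lay below every CNTR library, as for 2.4% of the genes tested (exact permutation test, two-sided p = 0.0286). It is a low gene, with 21 to 133 counts, and its log2 fold change of -1.12 (SE 0.39) had an edgeR adjusted p of 0.599. Cbx2, a Polycomb gene that acts upstream of Nr5a1 in the fetal gonad, was the other one without overlap. It was at 27.9 to 30.4 CPM in CNTR and 30.5 to 33.4 CPM in PAMH F3 (log2 fold change 0.15, edgeR adjusted p = 0.681). Every PAMH F3 library thus lay narrowly above every CNTR library, as for 1.85% of the genes tested (exact permutation test, two-sided p = 0.0571).

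Cbfb, which encodes the subunit that all RUNX proteins need to bind DNA firmly, was at 135.4 to 168.9 CPM in CNTR and 157.9 to 186.7 CPM in PAMH F3 (log2 fold change 0.06, edgeR adjusted p = 0.875). The GATA cofactor gene Zfpm2 had a log2 fold change of 0.17 (edgeR adjusted p = 0.71), and its relative Zfpm1 one of -0.26 (edgeR adjusted p = 0.713), with CNTR replicate 2 at 12.1 CPM and every other library between 5.96 and 7.77 CPM. Without surrogate variables Zfpm1 was at -0.44. Nr2f1, the paralog of Nr2f2, had a log2 fold change of 0.21 (edgeR adjusted p = 0.781) and Lhx9, a LIM factor of the gonadal epithelium, one of -0.04 (edgeR adjusted p = 0.973), which was 0.16 without surrogate variables, with means of 37.2 CPM in CNTR and 41.5 CPM in PAMH F3. The female pathway ligand genes Wnt4 and Rspo1 had log2 fold changes of -0.07 and -0.40 (edgeR adjusted p = 0.974 and 0.733). Esr2, the granulosa estrogen receptor gene, was at 95.0, 85.2 and 140.1 CPM in CNTR and between 122.6 and 173.6 CPM in PAMH F3, and the log2 fold change was 0.49 (SE 0.13, adjusted p = 0.512 in edgeR).

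The genes that these factors act on were taken by cell type. Among 18 granulosa genes, 0 passed the adjusted threshold, and 5 higher (among them Inhba, Inhbb, Fst and Hsd17b1) and 1 lower (Amh) had an unadjusted p under 0.05, against 3.75% and 3.89% of all genes tested, with a median log2 fold change of 0.10. Without surrogate variables these counts were 3 and 0 and the median was 0.07. The study, which used DESeq2 with sva, reported Inhbb and Fst as higher in PAMH F3 at its adjusted threshold. Here DESeq2 with 2 surrogate variables called 3 genes over all the lists, so such calls depended on the tool. Amh, a granulosa gene that GATA4, NR5A1 and WT1 can activate, was at 114.3 ± 32.4 CPM for CNTR (SD, n = 3) and 86.7 ± 18.1 CPM for PAMH F3 (SD, n = 4), with a log2 value of -0.34 (edgeR adjusted p = 0.631). The log2 fold changes of the follicle-stimulating hormone receptor gene Fshr and of the aromatase gene Cyp19a1 were 0.00 and 0.09, but that of Cyp19a1 was -0.23 without surrogate variables, with means of 116.9 CPM in CNTR, where it ranged from 57.6 to 211.9 CPM, and 99.4 CPM in PAMH F3. Of 18 theca, interstitial and luteal genes 17 were tested, with 0 past the adjusted threshold, 1 higher (Aldh1a1, 0.22) and 4 lower at an unadjusted p under 0.05, against 3.75% and 3.89% of all genes tested, and a median log2 fold change of -0.16, or -0.26 without surrogate variables. The 4 lower were Sfrp4 (-0.99), the prostaglandin receptor gene Ptgfr (-0.95), the prolactin receptor gene Prlr (-0.36) and Fdx1 (-0.32), which encodes the electron donor of the mitochondrial steroid enzymes, with edgeR adjusted p values from 0.529 to 0.611. For Sfrp4 and Fdx1 every PAMH F3 library lay below every CNTR library, as for 2.4% of the genes tested. Without surrogate variables 0 genes of this list were higher and 3 lower at an unadjusted edgeR p under 0.05, where 2.84% of all genes tested were lower. In that fit Aldh1a1 was at 0.10 and Prlr at -0.26. In this list Star, which brings cholesterol into mitochondria, was at 0.13, Cyp11a1, which starts steroid synthesis, at -0.30, Cyp17a1, the androgen enzyme of theca cells, at -0.34, Hsd3b1 at -0.01 and the luteinizing hormone receptor gene Lhcgr at -0.20 on the log2 scale, with edgeR adjusted p values from 0.733 to 0.992. Cyp17a1 was at -0.67 in the fit without surrogate variables (edgeR unadjusted p = 0.0536), and its CNTR replicate 3 was at 428.0 CPM, above all other libraries (141.2 to 203.5 CPM). Hsd3b1 was at 0.06 in the fit without surrogate variables.

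The listed Sertoli and testis genes, not all of which need be held back by FOXL2, had group means from 0.00784 CPM (Dmrt1) to 25.6 CPM (Dhh). In whole ovaries the cell type that made these transcripts is not known. Of 12 listed 10 were tested, 0 passed the adjusted threshold, and 0 higher and 2 lower had an unadjusted p under 0.05 (Ptgds and Cldn11), against 3.75% and 3.89% of all genes tested. Ptgds was at 11.6 to 13.4 CPM in CNTR and 5.83 to 10.4 CPM in PAMH F3. Every PAMH F3 library thus lay below every CNTR library, as for 2.4% of the genes tested. The log2 fold change of Ptgds was -0.67 (edgeR adjusted p = 0.54). Sox9, which drives Sertoli cell fate, was at 20.1 ± 2.07 CPM for CNTR (SD, n = 3) and 20.1 ± 5.64 CPM for PAMH F3 (SD, n = 4), with a log2 value of 0.06 (edgeR adjusted p = 0.96). Sox8 was between 1.02 and 1.54 CPM in the 7 libraries, and Dmrt1, the testis factor that opposes FOXL2, had between 0 and 1 count per library. The summed level of the 12 genes was 80.7 to 89.7 CPM in CNTR and 72.0 to 84.6 CPM in PAMH F3, and Dhh made 30.6% of it. Over the 7 libraries Foxl2 ran in the same direction as this sum, past neither adjusted threshold. Pearson's r was 0.72 (exact permutation p = 0.0704, adjusted 0.408) and Spearman's rho 0.93 (exact permutation p = 0.00675, adjusted 0.148). In deviations from the group means this r was 0.54. The relation was not tested without Dhh.

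The remaining lists mark the cells that share the sample with the follicle. The adjusted threshold was passed by 0 of the 12 stromal, 10 surface epithelium, 12 oocyte, 10 endothelial, 10 leukocyte, 8 adipocyte and 8 oviduct epithelium genes. Their median log2 fold changes were -0.04, -0.04, -0.03, -0.19, -0.05, -0.58 and 0.04. All 8 adipocyte genes had values below 0, as had 9078 of the 18779 genes tested, and 0 of the 8 had an unadjusted edgeR p under 0.05. Without surrogate variables the median of the adipocyte genes was -0.41. Their sum ran from 523.1 to 1653.3 CPM in CNTR and from 299.8 to 1173.4 CPM in PAMH F3.

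**Figure D5:**
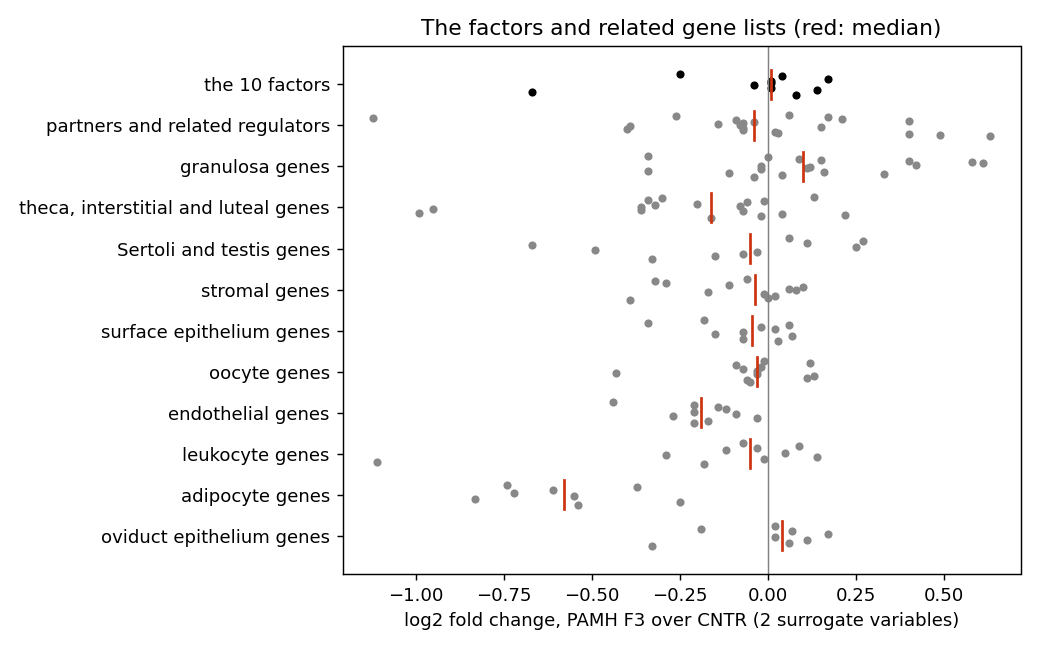
Log2 fold changes of PAMH F3 over CNTR (horizontal axis, fit with 2 surrogate variables) for the 10 factors (black) and the genes of each list (grey), with the median of each in red. The factors center on 0.01, the granulosa genes on 0.10 and the adipocyte genes on -0.58.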

How the data were processed

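The deposited values are raw read counts per gene from 7 libraries, made by the authors from single reads mapped to mm10 with STAR 2.5.3a and counted with HTSeq-count 0.6.1p1 (union mode), which kept reads with a unique alignment. The Ensembl release is not given in the sources used here. Summary lines of HTSeq were left out. Symbols, positions and exon lengths came from GENCODE M21. Counts were scaled by TMM over all gene rows. The test was that of edgeR 4.0.16 under R 4.3.3 (quasi-likelihood F test, filterByExpr with a minimum count of 10) with 2 surrogate variables from svaseq in sva 3.50.0, which left 3 residual degrees of freedom, with Benjamini-Hochberg adjustment over 18779 genes at a threshold of 0.05. Standard errors are the size of the log2 fold change divided by the square root of F. DESeq2 1.42.0 was an alternative. Exact permutation tests used the 35 divisions of the libraries into 3 and 4, and correlations the 5040 orders of 7 values. Tests were checked on simulated data. The GC correction fitted splines of 4 degrees of freedom to each library.

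The relations with list sums were added after seeing the data. The factors and lists were chosen with earlier results of these data known. The genes named are the 10 factors, 20 fixed partners, targets and Sertoli cell genes, and partners whose groups did not overlap or genes past the threshold. Gdf9, Zp3, Ovgp1, Foxl2os, Gja1, Krt18, Upk3b, Msln, Lyz2, Ptgds, Cldn11, Dhh, Inhba, Inhbb, Fst, Hsd17b1, Aldh1a1, Sfrp4, Ptgfr, Prlr, Fdx1 and the overlapping genes were named after their values were seen. For 1 list gene no values are reported here.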

Additional observations from a re-analysis of the deposited data

Results flagged for a closer look

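In 4 of the 31 genes screened, 1 of the 4 PAMH F3 libraries lay far from the others (a gap to the nearest library above the critical value of the test of Dixon at the level of 0.05), which chance alone gives for about 1 gene in 20. It was PAMH F3 replicate 4 each time. Nr5a1 was at 268.9 CPM there and between 244.1 and 246.9 CPM in the other PAMH F3 libraries. Cbfb was at 186.7 CPM, against 157.9 to 160.0 CPM. Rspo1 was at 10.3 CPM, against 20.1 to 21.2 CPM. Dmrt1 was at 0.0314 CPM, which is 1 count, against 0 in the others, a case that exceeds the critical value by construction and is no evidence of a library that stands apart.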

How the results depend on the processing

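Under the alternatives, 0 of the 10 factors passed the adjusted threshold each time. Over all genes, the count called went from 0 to 101 with DESeq2 and 2 surrogate variables, to 6 with DESeq2 without them, to 8 without a filter on low counts, and to between 0 and 39 when a library was left out (39 without CNTR replicate 1, 37 without PAMH F3 replicate 1). Among the genes of the lists it went from 0 to 3 with DESeq2 and 2 surrogate variables, and to between 0 and 3 when a library was left out. The causes were not tested. With the median transcript length, 3 of the 10 factors kept their place in the order of levels, because the annotated exons of some genes add up to far more than their transcripts.

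Foxl2, Nr5a2, Runx1 and Runx2 kept their direction in all 20 alternatives. Small log2 fold changes turned for the others. Without surrogate variables they were -0.08 for Nr5a1, -0.06 for Nr0b1 and -0.09 for Gata4 in edgeR and in DESeq2. With 1 surrogate variable they were -0.07, -0.07 and -0.10, and with 3 Gata4 was at -0.01. With the replicate block they were -0.08, -0.10 and -0.13, and with block and GC correction -0.05 for Nr0b1 and -0.04 for Gata4. The GC correction gave 0.03 for Gata6 and -0.03 for Nr2f2. Leaving out a library gave -0.22 to 0.14 for Nr5a1, -0.17 to 0.13 for Nr0b1, -0.25 to 0.07 for Gata4, -0.06 to 0.01 for Gata6, -0.01 to 0.06 for Wt1 and -0.04 to 0.11 for Nr2f2.

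Replicate numbers are shared by the groups, but nothing in the labels pairs the mice. Same-numbered libraries had correlations of their deviations of 0.096, 0.097 and -0.248, so that no pairing was used. The replicate block called 0 genes, and moved Nr5a2 to 0.08 (0.03 with the GC correction). The lowest count of a factor in a library was 181, for Nr0b1. How much of its spread is counting error was not tested. The exact permutation test called 0 of the 10 with either normalization.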
